A study of Homo sapiens with 6 samples.

Results

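The ZNF genes are the human genes named ZNF and a number, most of which code for proteins with C2H2 zinc fingers, small folds that hold a zinc ion and usually read DNA. Of 477 gene rows with such a name, 190 had a mean of at least 2 FPKM (sequenced fragments relative to transcript length and to the size of the library) over the 6 libraries, and these 190 of 20026 gene rows are the members described. The members were thus chosen by their mean FPKM, so their levels are a description. Of the other 287 rows, 95 were listed at 0 in every library. The members were measured by RNA sequencing in 3 stable lines of HCT116, an established line from a human colon carcinoma. One line over-expressed TEAD4 K178R, the mutant of the transcription factor TEAD4. One over-expressed wild type TEAD4 (called WT), and one was the control line. Each line had 2 libraries of total RNA made with a TruSeq kit. The titles of the control libraries carry the letters PQ, which the labels do not explain. No promoter that drives TEAD4 and no clone number is given, and the genotype field of WT replicate 2 reads TEAD5 where its title reads TEAD4WT. Separate cultures for the libraries of a line are not stated, so each p-value rests on the spread between libraries alone, which may be technical.

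Many C2H2 zinc finger proteins carry a KRAB domain. This domain binds TRIM28, which brings SETDB1 and other chromatin proteins that silence DNA, above all transposable elements. The KRAB genes arose by repeated duplication, lie in clusters on chromosome 19 and elsewhere, and share much sequence. Other members have no KRAB domain and serve in promoter control, ribosome assembly, splicing or cell division. TEAD4 itself binds DNA through its TEA domain and recruits the Hippo pathway coactivators YAP1 and TAZ.

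TEAD4 stood at 71.2 and 72.3 FPKM in the K178R libraries, 86.4 and 84.4 in the WT libraries, and 16.6 and 17.5 in the control libraries. Total FPKM ranged from 283195 to 305329 per library, and relative depth from 0.915 to 1.05 of control replicate 1, read from the step that 1 read makes in genes under 0.1 FPKM. The number of reads is unknown. Of 6 epithelial markers, 5 reached 0.5 FPKM in a library. Their summed FPKM lay between 2848 and 2881 in K178R, 1792 and 1846 in WT, and 2631 and 2677 in control, and the part of this shift in the results below was not tested. None of 4 fibroblast, 4 leukocyte or 3 endothelial markers reached 0.5 FPKM. COL1A2, DCN, LUM and CD3E were at 0 in every library. In whole cultures, fewer cells with a transcript and less of it per cell cannot be told apart.

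The promoters of 5 members are printed to show what windows with and without the short TEAD motif CATTCC look like. ZNF219, ZNF45, ZNF532 and ZNF275 hold it and were called higher with K178R, calls that were each lost without at least 1 library. ZNF367, which fell most with WT, holds none, and neither do ZNF639, ZNF503, ZNF557, ZNF576, ZNF655 and ZNF778, which were also called higher with K178R. For ZNF704 and ZNF395, called higher as well, no window was available. The windows were chosen after the values and the motif matches were seen, so the pairing of motif and direction in them is no result. Each window runs from 250 bases before to 50 bases after the gene start, 5′ to 3′ along the gene, from RefSeq on GRCh38.p14, with the motif in capitals.
ZNF219, chr14:21104673-21104972, minus strand: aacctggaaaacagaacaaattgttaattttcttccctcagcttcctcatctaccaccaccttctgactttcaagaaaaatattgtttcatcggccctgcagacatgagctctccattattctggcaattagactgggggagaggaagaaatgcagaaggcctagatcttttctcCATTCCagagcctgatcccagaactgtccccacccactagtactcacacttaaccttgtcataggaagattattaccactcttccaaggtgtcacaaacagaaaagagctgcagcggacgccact
ZNF45, chr19:43935233-43935532, minus strand: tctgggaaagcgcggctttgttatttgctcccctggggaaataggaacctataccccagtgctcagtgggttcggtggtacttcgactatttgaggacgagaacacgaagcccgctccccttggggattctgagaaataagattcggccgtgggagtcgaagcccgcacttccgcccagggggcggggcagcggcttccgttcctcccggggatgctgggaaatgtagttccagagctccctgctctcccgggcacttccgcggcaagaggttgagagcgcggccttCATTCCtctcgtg
ZNF532, chr18:58862674-58862973, plus strand: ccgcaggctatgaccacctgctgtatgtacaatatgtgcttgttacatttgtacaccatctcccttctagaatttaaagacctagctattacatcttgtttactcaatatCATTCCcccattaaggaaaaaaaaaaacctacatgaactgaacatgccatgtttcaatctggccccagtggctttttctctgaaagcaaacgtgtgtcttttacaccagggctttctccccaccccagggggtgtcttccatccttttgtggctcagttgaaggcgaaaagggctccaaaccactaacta
ZNF275, chrX:153333903-153334202, plus strand: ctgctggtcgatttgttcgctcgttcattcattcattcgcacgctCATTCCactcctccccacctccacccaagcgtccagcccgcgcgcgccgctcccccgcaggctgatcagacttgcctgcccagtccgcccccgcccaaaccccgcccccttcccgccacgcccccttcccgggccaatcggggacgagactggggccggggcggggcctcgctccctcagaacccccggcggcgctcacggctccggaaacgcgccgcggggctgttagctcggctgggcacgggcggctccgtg
ZNF367, chr9:96418321-96418620, minus strand: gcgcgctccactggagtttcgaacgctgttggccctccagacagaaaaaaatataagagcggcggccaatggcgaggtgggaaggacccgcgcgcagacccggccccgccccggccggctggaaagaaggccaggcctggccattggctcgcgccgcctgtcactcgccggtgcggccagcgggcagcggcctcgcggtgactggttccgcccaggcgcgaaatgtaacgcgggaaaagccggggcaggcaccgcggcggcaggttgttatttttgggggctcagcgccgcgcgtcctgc
Among the 165 members with a RefSeq window, 22 held CATTCC or its reverse complement GGAATG, which is 13.3%, against 14.0% of 27305 windows of all genes. A match is a description of letters and no sign of binding. The median window of a member held 24 CG pairs, and that of all genes 14. The members were chosen by expression and the windows of all genes were not. Windows of other genes of the same FPKM range were not read, so neither difference is shown to be a trait of ZNF genes. The windows of ZNF219 and ZNF532 held 3 CG pairs each, and those of ZNF45, ZNF275 and ZNF367 held 22, 36 and 37.

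Members were expressed at low to moderate levels. Their mean FPKM had a median of 4.23, with quartiles at 2.75 and 7.07 and a highest value of 70.2. Besides those from 2 to under 5 FPKM there were 50 from 5 to under 10, and 24 at 10 or more. All 190 were above 0 in every library. Summed, they made up 0.441% and 0.443% of all FPKM in the K178R libraries, 0.415% and 0.422% in the WT libraries, and 0.421% and 0.422% in the control libraries. The members just inside the threshold were ZNF180 (mean 2.01 FPKM), ZNF761 (2.01) and ZNF79 (2.02). Just outside were ZNF695 (1.97), ZNF805 (1.96) and ZNF484 (1.91).

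None of the 10 most abundant members held the KRAB pattern described below. ZNF593, whose yeast counterpart serves in assembly of the large ribosomal subunit, stood at 69.6 and 71.2 FPKM in K178R, 76.7 and 71.0 in WT, and 68.9 and 64.1 in control. Of its transcript, 95.7% of 31-base words also occur in transcripts annotated to other genes, so its value is uncertain. ZNF207, the spindle protein BuGZ that binds BUB3, stood at 63.3 and 66.2 FPKM in K178R, 52.9 and 52.7 in WT, and 64.4 and 67.7 in control. Both WT libraries were below all 4 others. ZNF664 averaged 57.5, 61.3 and 54.2 FPKM in K178R, WT and control. ZNF146, a protein made almost wholly of zinc fingers, averaged 42.8, 47.6 and 45.2 FPKM in the same order, and ZNF770 averaged 24.3, 27.3 and 23.5. The nucleolar protein gene ZNF330 averaged 21.9, 22.1 and 21.8 FPKM, with control libraries at 23.6 and 19.9. ZNF598, a ubiquitin ligase that acts on collided ribosomes, averaged 20.2, 21.5 and 22.5 FPKM. ZNF24, a factor with a SCAN domain, stood at 19.7 and 18.3 FPKM in K178R, and averaged 21.2 in WT and 20.3 in control. ZNF622, linked to maturation of the large ribosomal subunit, averaged 18.4, 20.5 and 17.7 FPKM, and ZNF511 averaged 17.3, 17.4 and 17.2. Of the 31-base words of ZNF511, ZNF770, ZNF207 and ZNF598, 55.7%, 41.8%, 25.7% and 11.4% also occur in transcripts of other genes. Their values carry the same uncertainty to a lesser degree. In the remaining abundant members the share was under 10%.

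By position, 66 members lie on chromosome 19, 20 on chromosome 16 and 19 on chromosome 7 (GENCODE release 29, GRCh38). For 71 members the nearest protein-coding gene is another ZNF gene. The coding sequences of the annotation, translated, held a median of 9 C2H2 patterns and up to 31, in ZNF142. A C2H2 pattern was taken as 2 cysteines, a loop of 12 residues and 2 histidines at the usual spacing. No pattern was found in 5 members, namely ZNF185, ZNF330, ZNF503, ZNF703 and ZNF839. ZNF185 is known as a LIM domain protein of the actin cytoskeleton. A strict form of the KRAB core (W, L, Q, LY and VM at fixed spacing) was found in 65 members, 33 of them on chromosome 19, and a miss does not show that the domain is lacking. For 72 members at least 10% of the 31-base words of the transcript occur in transcripts of other genes, on either strand. The other genes include any that overlap a member, as the nearest coding genes of ZNF593 and ZNF410 do. The share thus does not measure duplicated copies alone. Reads could be split among such genes, and the authors' treatment of such reads is not given in the sources used here.

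Changes were tested on log2(FPKM + 1) with limma across 11445 genes, all 190 members among them, and called at a Benjamini-Hochberg adjusted p under 0.05. That scale understates the change of low genes. Within a line, the absolute log2 difference between the 2 libraries had a median over members of 0.06 in K178R, 0.06 in WT and 0.07 in control. The absolute log2 change between lines had a median of 0.12 for WT against control, 0.07 for K178R against control and 0.10 for K178R against WT. The median standard error of a member's change was 0.06, against 0.05 for the 8340 other genes of the same FPKM range. Those genes share the range but lie higher in it, with 3861 at 10 FPKM or more, against 24 of the 190 members. Their median standard error was 0.04 at 10 FPKM or more and 0.06 from 2 to under 5 FPKM. The shares of the 2 sets are thus not matched by level. In all, 87 members were called in at least 1 comparison and 103 in none. The comparisons share libraries, so their counts are not independent of each other. With 2 libraries a group, a called gene will mostly have groups that do not overlap. Statements that they do not overlap describe the values and add no support to a call. The share of all genes with such groups was not counted.

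With WT TEAD4, 42 members were higher and 20 lower than in control. That is 22.1% and 10.5% of the members (62 in all, with 49.9% of all genes tested called either way), where 37.6% and 12.2% of all genes tested, and 38.3% and 13.3% of the other genes of the same FPKM range, were called higher and lower. The median log2 change was 0.04 over the members, 0.09 over the other genes of that range and 0.09 over all genes. Scaling turned the split. After median-of-ratios scaling, 24 members were higher and 47 lower (background 25.7% and 21.1% of all genes), with a median log2 change of -0.03, against 0.00 over the other genes of the range. Upper-quartile scaling also gave 24 and 47. All 24 members higher after scaling were among the 42, and all 20 lower without scaling stayed lower, so 24 higher and 20 lower calls stood in both. The scaling divides each WT library by 1.04 and each other library by 0.98, which moves WT changes down throughout. This nesting thus largely follows from the scaling and is no separate support for the calls. The count of higher members fell to 27 without control replicate 2 or without WT replicate 1, and to 25 with the control libraries averaged, and the count of lower members to 13 without control replicate 2. The shares of all genes in those reduced fits are not given here, so these falls are not shown to be particular to the members. No test of the difference between members and other genes was made. For 13 members the mean over the K178R and control libraries alone was under 2 FPKM, so that WT libraries brought them over the threshold. Of these 13, 9 were among the 42 higher with WT, ZNF516, ZNF134, ZNF184 and ZNF559 included, and their membership and call rest on the same libraries. The other 177 members held 33 higher and 20 lower.

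**Figure D1:**
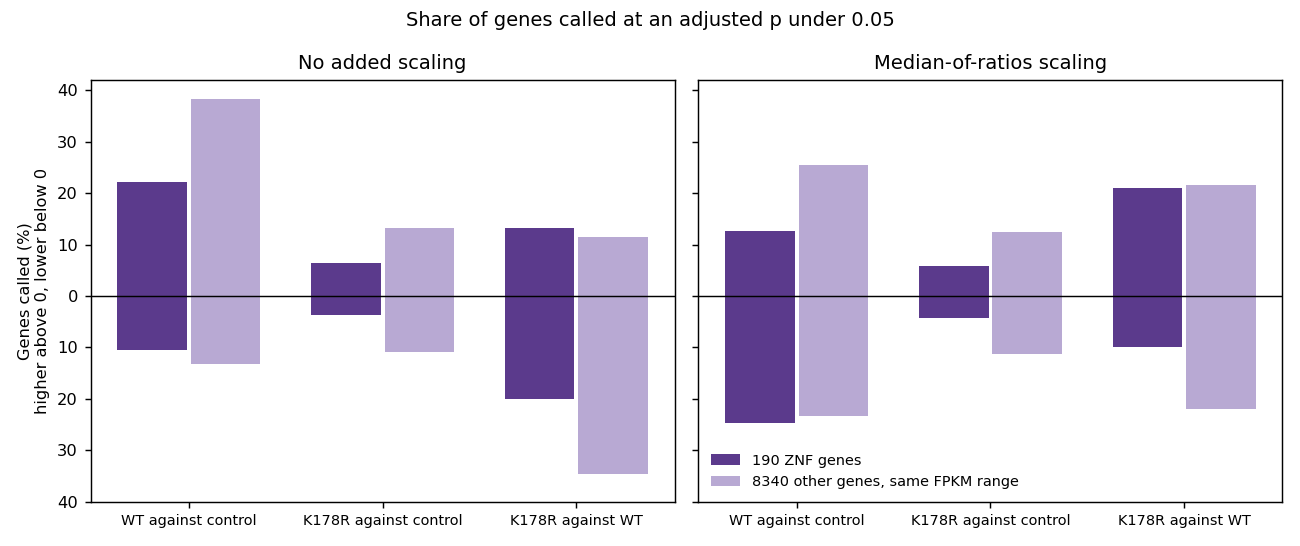
Share of genes called higher (bars above 0) and lower (bars below 0), in percent, for the 190 ZNF genes (dark) and the 8340 other genes between the lowest and highest mean FPKM of the members (light), in each of the 3 comparisons. On the left no scaling was added and on the right the libraries were scaled by the median of ratios, and for WT against control the members went to 12.6% higher and 24.7% lower after scaling.

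The rises with WT were modest, with ratios of mean FPKM from 1.11 to 1.82 among called members. ZNF219, a factor known as a partner of SOX9 in mouse cartilage, stood at 5.85 and 7.15 FPKM in WT and 3.46 and 3.66 in control. The groups did not overlap, and the rise was log2 0.71 (SE 0.12, adjusted p = 0.00225 by limma). ZNF516, known in mouse as an activator of the brown fat gene Ucp1, stood at 2.52 and 2.78 FPKM in WT and 1.30 and 1.70 in control (log2 0.55, SE 0.08, adjusted p = 0.00163 by limma). ZNF669 rose by log2 0.46, ZNF184 by 0.42, ZNF616 by 0.39, ZNF134 by 0.39 and ZNF558 by 0.35, and each of these stayed called after scaling. ZNF524 rose by log2 0.37, but without control replicate 2 its adjusted p was 0.0589. ZNF559 rose by log2 0.35, with an adjusted p of 0.0634 without control replicate 2 (log2 0.22) and 0.061 without WT replicate 1. ZNF302 rose by log2 0.40 (adjusted p = 0.0336 by limma), but its control libraries read 1.59 and 2.38 FPKM. Its adjusted p was 0.0662 after median-of-ratios scaling, 0.16 without control replicate 1 (log2 0.21), 0.164 without WT replicate 2, and 0.0501 and 0.05 without K178R replicates 1 and 2.

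The falls with WT included members with known roles outside silencing. ZNF367 stood at 6.20 and 6.63 FPKM in WT and 10.6 and 10.5 in control, a ratio of means of 0.608 (log2 -0.64, SE 0.05, adjusted p = 7.8e-05 by limma). ZNF185, the LIM domain gene, stood at 2.55 and 2.64 FPKM in WT and 4.09 and 3.97 in control (log2 -0.49, SE 0.05, adjusted p = 3.5e-04 by limma). In neither gene did the groups overlap. ZNF207 fell by 0.32 on the log2 scale, with the values given above. ZNF326, a subunit of the DBIRD complex that links transcription to splicing, read 4.69 and 4.71 FPKM in WT and 6.27 and 5.88 in control, a fall of 0.31 on the log2 scale. ZNF830, linked to splicing of pre-mRNA, read 8.34 and 7.55 FPKM in WT and 10.2 and 9.80 in control, a fall of 0.30 on that scale. ZNF445, a KRAB protein that maintains imprints, fell by 0.25 on the log2 scale. ZNF865 (log2 -0.39), ZNF646 (log2 -0.32), ZNF142 (log2 -0.32) and ZNF526 (log2 -0.25) also fell. Each of these 10 stayed called under every alternative tried.

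Of the 190 members, 90 had a 95% interval of the WT change wholly within 0.25 of 0 on the log2 scale. For the rest the data allow larger changes even where no call was made. By level, the members under 5 FPKM held 26 higher and 8 lower (22.4% and 6.9%), where other genes of that band were at 42.1% and 6.92%. This band holds the 13 members that only the WT libraries brought over 2 FPKM, 9 of them called higher. The 50 members from 5 to under 10 FPKM held 9 higher and 10 lower, where other genes of that band were at 39.7% and 10.7%, and after scaling the members held 3 higher and 22 lower, which is 6% and 44%. Of the 2209 other genes of the band, 593 were then higher and 420 lower. Over all 190 members 24 were higher and 47 lower after scaling, so the split of this band is not that of the members as a whole. The 24 most abundant members held 7 higher and 2 lower (29.2% and 8.33%), where other genes at 10 FPKM or more were at 35.3% and 18.5%.

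**Figure D2:**
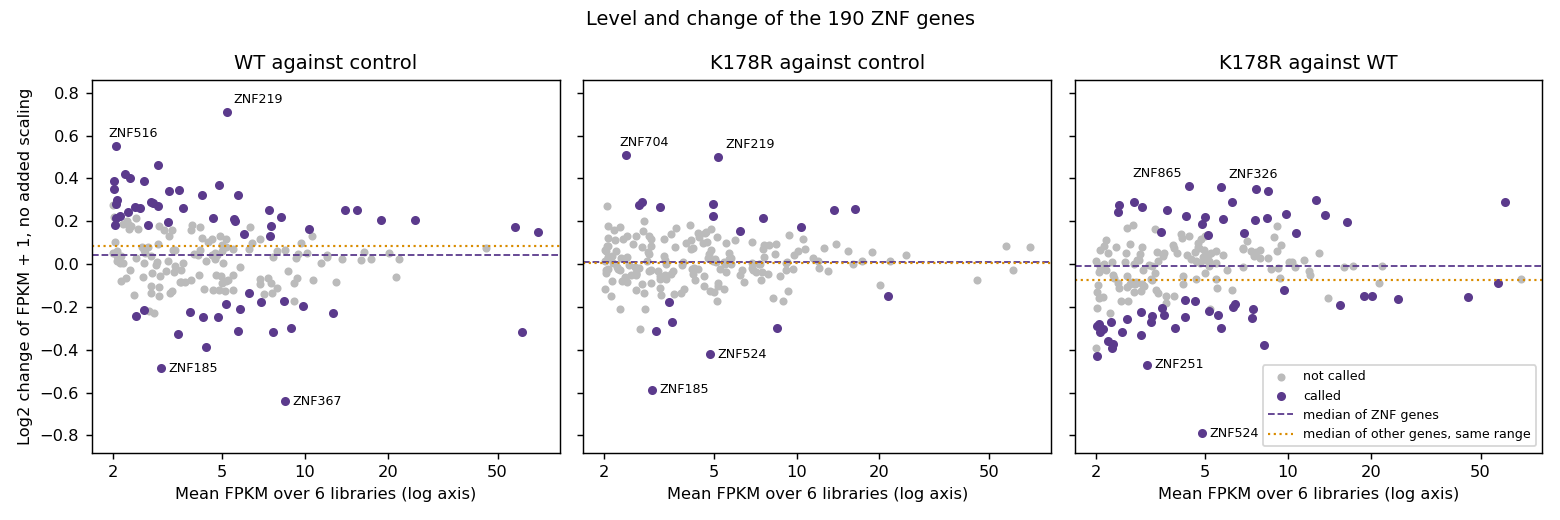
Log2 change of FPKM + 1 without added scaling (vertical axis) against mean FPKM over the 6 libraries (horizontal log axis) for each of the 190 ZNF genes, in 3 comparisons. Dark points were called, the dashed line is the members' median and the dotted line that of the other genes of the same range, and the medians lie at 0.04 and 0.09 in the first panel.

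With TEAD4 K178R, 12 members were higher and 7 lower than in control, which is 6.32% and 3.68% of the members, against 11.7% and 11.1% of all genes tested and 13.1% and 10.8% of the other genes of the range. These shares are not split by level, and the other genes lie higher in the range. The median log2 change was 0.01 over the members and 0.00 over the other genes. Median-of-ratios scaling gave 11 higher members and 8 lower ones (background 11.2% and 11.6%). The counts rest on few libraries. A fit without 1 library has less to estimate the spread from, for every gene. The shares of all genes in such fits are not given here, so a fall in these counts is not shown to be particular to the members. Leaving out control replicate 1 gave 6 higher members and 2 lower ones, and leaving out control replicate 2 gave 4 and 5. Leaving out K178R replicate 1 gave 8 and 4, and leaving out K178R replicate 2 gave 6 and 2. Averaged controls gave 4 and 2. For 117 members the 95% interval of the change lay within 0.25 of 0 on the log2 scale.

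ZNF704, a relative of ZNF395, had the largest rise with K178R, at 3.16 and 2.87 FPKM in K178R against 1.83 and 1.80 in control, a ratio of means of 1.66 (log2 0.51, SE 0.06, adjusted p = 0.00117 by limma). ZNF639, also known as ZASC1, stood at 18.1 and 18.2 FPKM in K178R and 14.6 and 15.5 in control (log2 0.26, adjusted p = 0.00383 by limma). ZNF503, a corepressor of the NET family without C2H2 patterns here, stood at 15.4 and 15.2 FPKM in K178R and 13.0 and 12.4 in control (log2 0.25, adjusted p = 0.00665 by limma). In all 3 genes the K178R libraries were above both control libraries, which adds no support to the calls. ZNF185 had the largest fall, at 2.38 and 2.33 FPKM in K178R against 4.09 and 3.97 in control (log2 -0.59, SE 0.05, adjusted p = 3.35e-04 by limma). ZNF367 read 8.23 and 8.57 FPKM in K178R and 10.6 and 10.5 in control (log2 -0.30, adjusted p = 0.00454 by limma). These 5 calls held under every alternative tried.

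The other 12 named calls of this comparison were each lost without at least 1 library, at adjusted p from 0.0552 to 0.184. ZNF219 read 4.77 and 6.23 FPKM in K178R and 3.46 and 3.66 in control (log2 0.50), with an adjusted p of 0.111 when control replicate 1 was left out, 0.0789 for control replicate 2 and 0.0921 for K178R replicate 2. ZNF524 read 3.37 and 3.26 FPKM in K178R and 5.02 and 4.54 in control (log2 -0.42), with an adjusted p of 0.0755 without control replicate 1 and 0.0594 without K178R replicate 2. ZNF251 (log2 -0.31) reached 0.0992 when control replicate 1 was left out, 0.081 for K178R replicate 1 and 0.0627 for K178R replicate 2. ZNF532 read 2.92 and 3.07 FPKM in K178R against 2.27 and 2.27 in control (log2 0.29), with 0.0612 when control replicate 1 was left out, 0.0586 for control replicate 2 and 0.0678 for K178R replicate 2. ZNF45 (log2 0.27) and ZNF557 (log2 0.28) reached 0.0695 and 0.0694 without control replicate 2, and 0.0697 and 0.0694 without K178R replicate 1. ZNF576 (log2 0.28) reached 0.0629 when control replicate 2 was left out and 0.0564 for K178R replicate 2, and ZNF627 (log2 -0.27) 0.0719 without control replicate 1 and 0.0552 without K178R replicate 2. ZNF275 (log2 0.22) and ZNF655 (log2 0.21) reached 0.147 and 0.121 without K178R replicate 2, 0.101 and 0.0834 without control replicate 1, and 0.122 and 0.11 without control replicate 2. ZNF598 (log2 -0.15) and ZNF646 (log2 -0.17) were lost without either control library and without either K178R library, at adjusted p from 0.0663 to 0.184, and ZNF646 also without WT replicate 1 (0.0595) and without WT replicate 2 (0.0592).

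**Figure D3:**
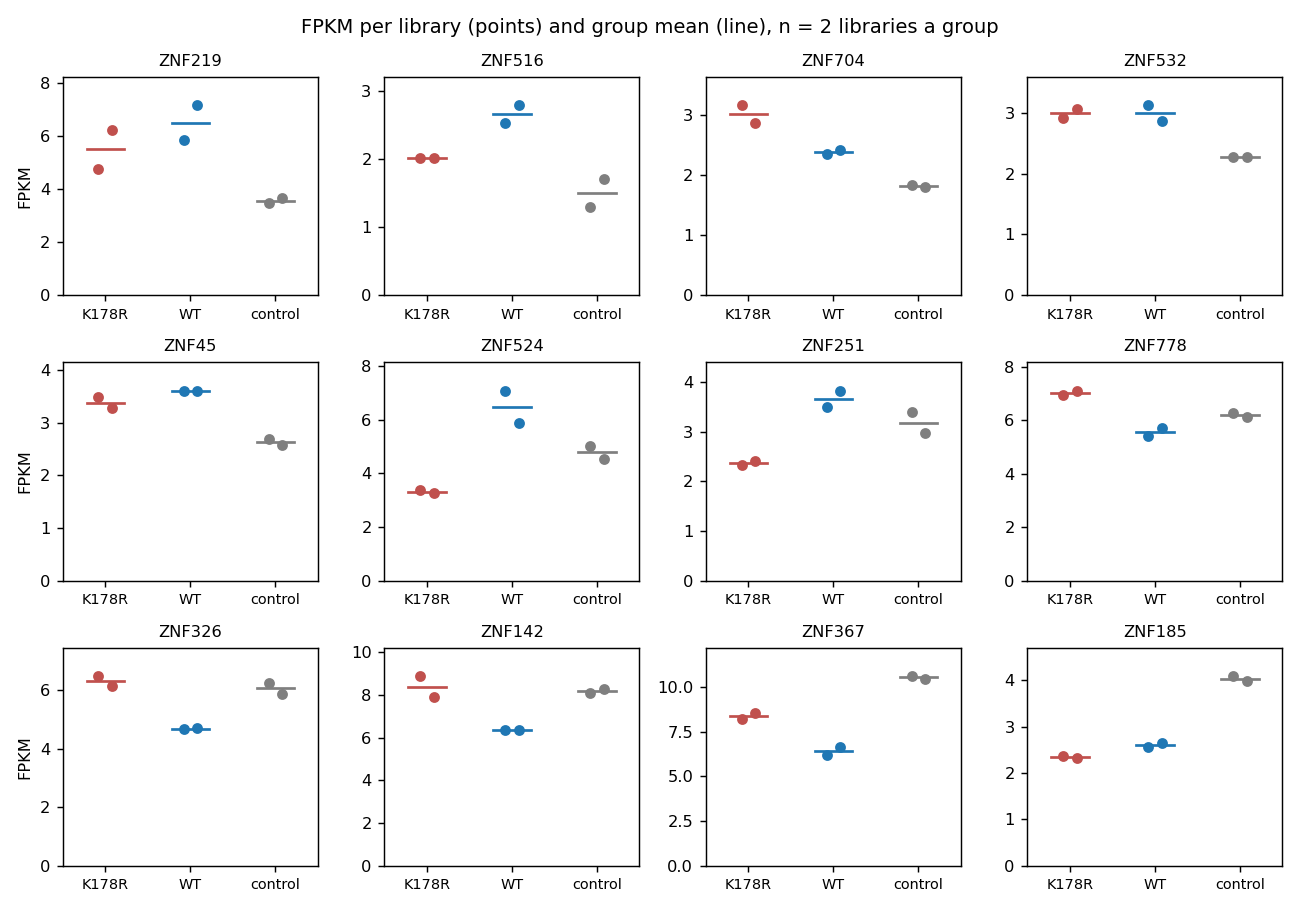
FPKM in each library (points) and the mean of the 2 libraries (line) for 12 ZNF genes, with K178R, WT and control from left to right and each vertical axis starting at 0. ZNF524 averaged 3.31 FPKM in K178R, 6.48 in WT and 4.78 in control, and ZNF185 was lower in the 4 TEAD4 libraries than in both control libraries.

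K178R was then set against WT. Here 25 members were higher and 38 lower in K178R, or 13.2% and 20% (63 in all, with 44.9% of all genes tested called either way), against 10.4% and 34.5% of all genes tested and 11.5% and 34.6% of the other genes of the range. Here too the shares are not split by level. The median log2 change was -0.01 over the members and -0.07 over the other genes. After median-of-ratios scaling the split turned to 40 higher and 19 lower (background 19% and 22.7%), with a median of 0.06 over the members and 0.00 over the other genes. All 25 higher members stayed higher and 19 of the 38 lower members stayed lower. That the 25 stayed largely follows from the scaling, which moves these changes up throughout. The lower members numbered 19 when K178R replicate 1 was left out, 24 for K178R replicate 2, 25 for WT replicate 1 and 20 for WT replicate 2. The higher members numbered 15 when K178R replicate 2 was left out. For these reduced fits too the shares of all genes are not given. Of the 38 lower members, 6 were among the 13 that only the WT libraries brought over 2 FPKM, and the other 177 members held 25 higher and 32 lower.

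ZNF524 differed most between the TEAD4 lines, at 3.37 and 3.26 FPKM in K178R and 7.08 and 5.87 in WT, a ratio of means of 0.512 (log2 -0.79, SE 0.08, adjusted p = 4.7e-04 by limma). The 2 control libraries lay between these groups. ZNF251 read 2.33 and 2.41 FPKM in K178R and 3.51 and 3.83 in WT (log2 -0.47, SE 0.07, adjusted p = 0.00174 by limma). ZNF134 (log2 -0.43), ZNF28 (log2 -0.39), ZNF512 (log2 -0.38), ZNF184 (log2 -0.36) and ZNF41 (log2 -0.32) were lower in K178R as well. ZNF134, ZNF184 and ZNF41 are among the 13 members that only the WT libraries brought over 2 FPKM. Their membership and these calls rest on the same libraries. Of the 31-base words of ZNF512 37.1%, and of those of ZNF28 26.5%, are shared with other genes. ZNF302 (log2 -0.37) was not called after scaling (adjusted p = 0.0897), nor when K178R replicate 1 (0.115), K178R replicate 2 (0.155) or WT replicate 2 (0.215) was left out. ZNF669 (log2 -0.33) was lost without WT replicate 2 (0.105) and K178R replicate 2 (0.0963), and ZNF32 (log2 -0.31) without WT replicate 1 (0.0521) and K178R replicate 1 (0.0715).

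Of the 25 members higher in K178R than in WT, the largest differences are given next. ZNF326 read 6.49 and 6.15 FPKM in K178R and 4.69 and 4.71 in WT (log2 0.36, SE 0.05, adjusted p = 0.00149 by limma). ZNF142 read 8.89 and 7.89 FPKM in K178R and 6.36 and 6.37 in WT (log2 0.35, SE 0.06, adjusted p = 0.00268 by limma). ZNF207 was higher by log2 0.29 (adjusted p = 8.7e-04 by limma) and ZNF367 by 0.34 (adjusted p = 0.0013 by limma). ZNF865 (log2 0.36), ZNF121 (log2 0.30) and ZNF778 (log2 0.29) were higher too. ZNF711, which works with the demethylase PHF8 and is linked to X-linked intellectual disability, was higher by log2 0.28, and was lost without WT replicate 2 (adjusted p = 0.0581) and K178R replicate 2 (0.0641). ZNF764 (log2 0.29) was lost without WT replicate 2 (0.0735) and K178R replicate 1 (0.072), and ZNF800 (log2 0.27) without K178R replicate 1 (0.0615). ZNF185 read 2.38 and 2.33 FPKM in K178R and 2.55 and 2.64 in WT, a difference of -0.10 on the log2 scale that was not called (95% interval -0.22 to 0.02).

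Features that did not enter the choice of members were then set beside the calls, as counts with no test. The shares of all genes tested were 37.6% higher and 12.2% lower with WT, 25.7% and 21.1% after scaling, and 11.7% and 11.1% with K178R. With WT, the 65 members with the KRAB pattern held 17 higher and 5 lower (26.2% and 7.69%), and the 125 without it 25 higher and 15 lower (20% and 12%). After scaling these were 6 and 11 with the pattern, and 18 and 36 without it. Among the 17 were ZNF189, ZNF559, ZNF600, ZNF678 and ZNF765, which only the WT libraries brought over 2 FPKM. The same holds for ZNF134, ZNF184, ZNF41 and ZNF516 among the 25. All counts of this kind keep such members, whose membership and call rest on the same libraries. The 66 members on chromosome 19 held 18 higher and 7 lower, and 9 and 16 after scaling, while the 124 on other chromosomes held 24 and 13, and 15 and 31 after scaling. Members with at least 10% shared 31-base words, 72 in all, held 19 higher and 7 lower, and the 118 others 23 and 13. The 22 members with the TEAD motif in the promoter window held 7 higher and 0 lower with WT, against 28 and 19 of 143 without it, but 3 and 5 against 18 and 40 after scaling. With K178R the motif holders had 4 higher and 0 lower, against 6 and 5 of 143, and after scaling 4 and 0 against 5 and 6. The 4 are ZNF219, ZNF275, ZNF45 and ZNF532, whose windows are printed above and whose calls were each lost without at least 1 library. ZNF704 and ZNF395, higher with K178R, and ZNF251 and ZNF524, lower with K178R, have no window and are in neither group.

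In 12 stretches of the genome at least 4 members lay with gaps under 1 Mb, 86 members in all, and 7 of these stretches were on chromosome 19. A stretch on chromosome 19 from 51571298 to 53458261 held 10 members, none of which was higher in K178R than in WT and 5 of which were lower, with a median log2 change of -0.21. Of all genes tested, 10.4% were higher and 34.5% lower in K178R than in WT. After median-of-ratios scaling 4 were lower, with a median of -0.14, where 22.7% of all genes were lower. Against control, 4 were higher with WT and 0 with K178R, and 0 were lower with either, where 37.6% of all genes were higher with WT. Of those 4, ZNF600 and ZNF765 had means of 1.93 and 1.95 FPKM without the WT libraries. Their membership thus rests on the libraries in which they were called higher. ZNF761 too passed the threshold only through the WT libraries. The lower call of ZNF600 in K178R against WT, and the medians above, thus include members chosen in part by their WT values. After scaling 1 of the 10 was higher with WT. ZNF616 read 2.43 and 2.54 FPKM in K178R and 3.10 and 3.21 in WT, and ZNF468 read 2.97 and 2.74 in K178R and 3.70 and 3.59 in WT. In both genes, as in every gene of the stretch but ZNF175, the K178R libraries were below both WT libraries. The share of all genes with such a separation was not counted. ZNF600 (log2 -0.30), ZNF28 (log2 -0.39) and ZNF480 (log2 -0.17) were the others called, ZNF480 only without scaling. Of the 31-base words of ZNF600, ZNF28 and ZNF468, 38.3%, 26.5% and 30.0% occur in other genes, and of those of ZNF616 and ZNF480 4.53% and 4.82%. The stretch was singled out after its values were seen. A stretch from 55576770 to 56160893 on the same chromosome, with 8 members, held 4 higher and 1 lower in K178R than in WT, and the same counts after scaling, the lower one being ZNF524, and 19% of all genes were higher after scaling.

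**Figure D4:**
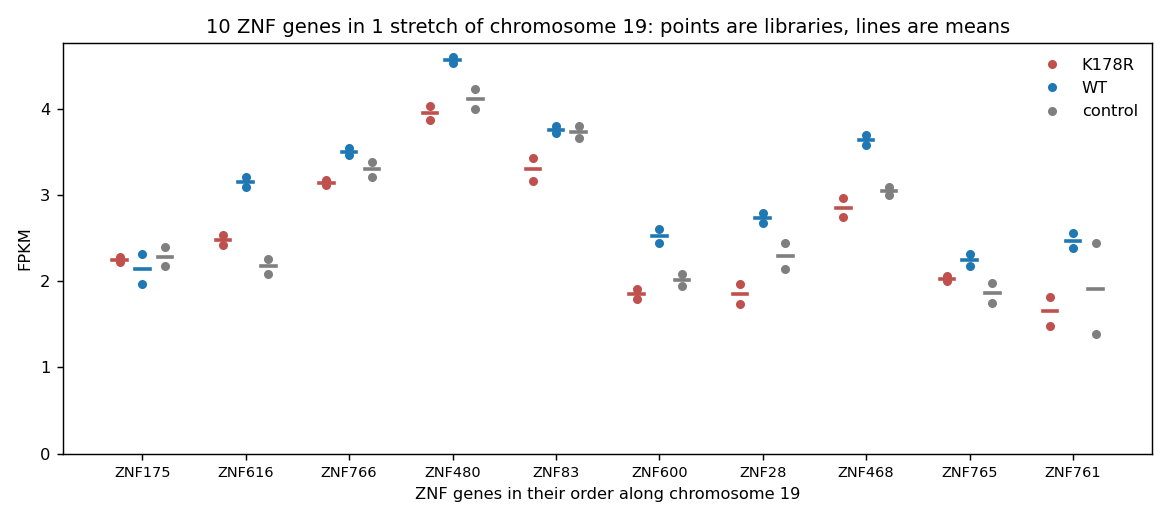
FPKM of 10 ZNF genes in their order along 1 stretch of chromosome 19, with K178R, WT and control from left to right within each gene, points for libraries and lines for means. In every gene shown but ZNF175, called or not, both K178R libraries lie below both WT libraries. For ZNF761 the control libraries read 2.44 and 1.39 FPKM.

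The partners of KRAB proteins were read from a list of 35 corepressor and heterochromatin genes. TRIM28, the scaffold that binds KRAB domains, stood at 204 and 208 FPKM in K178R, 212 and 199 in WT, and 257 and 250 in control. It fell in both lines (log2 -0.30, adjusted p = 0.00108 with K178R and log2 -0.30, adjusted p = 4.3e-04 with WT, by limma), also after scaling. SETDB1, the histone methyltransferase that TRIM28 recruits, averaged 6.16 ± 0.274 FPKM in K178R, 6.49 ± 0.0147 in WT and 6.29 ± 0.241 in control (SD, n = 2) and was not called in any comparison. With WT, 9 of the 35 were higher and 12 lower, and 6 and 15 after scaling, with a median log2 change of 0.00 and -0.09. That is 25.7% and 34.3% of the list, and 17.1% and 42.9% after scaling, where all genes tested were at 37.6% and 12.2%, and 25.7% and 21.1% after scaling. UHRF1, which guides DNMT1 to replicated DNA, averaged 32.3 ± 0.703 FPKM in WT and 48.4 ± 1.77 in control (SD, n = 2), a fall of 0.57 on the log2 scale. SUMO3 fell by 0.50 on that scale and MORC2, which acts with the HUSH silencing complex, rose by log2 0.52. With K178R, 3 were higher and 8 lower (8.57% and 22.9%, with all genes at 11.7% and 11.1%), among them the methyltransferase DNMT3A (log2 0.36), the remodeller CHD3 (log2 0.25) and the histone chaperone DAXX (log2 -0.25). K178R against WT gave 7 higher and 9 lower, and 13 and 5 after scaling (all genes 10.4% and 34.5%, and 19% and 22.7% after scaling), with MORC2 (log2 -0.49) lower and SUMO3 (log2 0.46) and UHRF1 (log2 0.44) higher in K178R.

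Other zinc finger genes at the same level, grouped by name, were read the same way. The shares over all genes tested, against which these small counts stand, were 37.6% higher and 12.2% lower with WT, 11.7% and 11.1% with K178R, and 10.4% and 34.5% for K178R against WT. Of 29 ZBTB genes, whose proteins add a BTB domain, 8 were higher and 4 lower with WT, 2 and 0 with K178R, and 3 and 6 between K178R and WT. ZBTB20 averaged 6.07 ± 0.147 FPKM in K178R, 2.90 ± 0.0407 in WT and 5.55 ± 0.0331 in control (SD, n = 2), and fell by 0.75 on the log2 scale with WT. Of 12 KLF and SP genes, 3 were higher and 3 lower with WT, 1 and 4 with K178R, and 1 and 6 between K178R and WT. KLF4, a factor of epithelial differentiation, averaged 2.47 ± 0.116 FPKM in K178R, 4.90 ± 0.412 in WT and 5.58 ± 0.693 in control (SD, n = 2), and fell by 0.92 on the log2 scale with K178R. KLF2 rose in both lines (log2 0.40 with K178R and 0.60 with WT). Its control libraries read 4.24 and 3.03 FPKM, and the call with K178R was near the threshold (adjusted p = 0.0452 by limma). KLF13 rose with WT (log2 0.46) and was lower in K178R than in WT (log2 -0.50). Of 9 ZSCAN and ZKSCAN genes, 2 were higher and 1 lower with WT, 0 and 0 with K178R, and 2 and 2 between K178R and WT, led by ZKSCAN1 (log2 0.38 with WT). Of 7 genes named ZFP, which include the CCCH gene ZFP36, 1 was higher (ZFP64) and 1 lower (ZFP91) with WT, and 0 and 0 with K178R. After scaling, the WT counts were 4 higher and 5 lower for ZBTB, 3 and 4 for KLF and SP, 1 and 2 for ZSCAN and ZKSCAN, and 1 and 3 for ZFP. Of all genes tested, 25.7% were then higher and 21.1% lower with WT.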

How the data were processed

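The authors deposited 1 table of FPKM values per library, per the file headers, and the submitters' processing notes name Bowtie 0.12.2 and the build hg18. For the FPKM program, its annotation and strand use, the sources used here give no name. Of 20030 rows, 4 with a repeated identifier were left out. The 11445 genes that reached 0.5 FPKM in 2 or more libraries entered the test on log2(FPKM + 1) with limma 3.58.1 (R 4.3.3, variance trend, all 6 libraries, 3 group means, no added scaling) in a 2-sided test, with Benjamini-Hochberg adjustment over all genes of a comparison. FPKM are no counts, so count models were left aside, and the number of reads is unknown. The fit was tested on simulated data. Alternatives were 2 scalings, a pseudocount of 0.1, no filter, no trend, only the groups compared, averaged controls, a replicate block, each library left out and member minimums of 1 and 5 FPKM.

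Named members were the 10 largest called changes each way per comparison, the 10 of highest level, those at the threshold and those called in opposite directions. The corepressor list and the other zinc finger lists give their 3 largest called changes in part. The members and lists were chosen with earlier results of these data known. The stretches of members, the shared 31-base words and the promoters printed were chosen after seeing the data. Positions, coding sequences and shared words come from GENCODE release 29 on GRCh38, and promoters from RefSeq on GRCh38.p14. No coordinate comes from the files.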

Additional observations from a re-analysis of the deposited data

Results flagged for a closer look

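ZNF524 was called in opposite directions against control in the 2 TEAD4 lines, lower with K178R (log2 -0.42) and higher with WT (log2 0.37), and the difference itself was called (K178R against WT, log2 -0.79, adjusted p = 4.7e-04 by limma). That difference held when each library was left out, at adjusted p up to 0.0047 by limma, while the call against control was lost in K178R without control replicate 1 or K178R replicate 2, and in WT without control replicate 2.

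ZNF778, a KRAB gene on chromosome 16, read 6.92 and 7.10 FPKM in K178R, 5.41 and 5.69 in WT, and 6.25 and 6.12 in control. It was higher than control with K178R (log2 0.16, adjusted p = 0.0482 by limma) and lower with WT (log2 -0.13, adjusted p = 0.0448 by limma), and differed between K178R and WT (log2 0.29, adjusted p = 0.00241 by limma). After median-of-ratios scaling the call with K178R was lost (adjusted p = 0.0536) and the others held (adjusted p = 0.0082 with WT and 0.0012 between K178R and WT).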

How the results depend on the processing

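Of the 57 named results, 36 kept their call and direction under every alternative, and 0 reversed. The counts of ZNF genes with WT against control were 24 higher and 47 lower under either scaling (median log2 change -0.0323 by median of ratios and -0.035 by upper quartile), 25 higher with averaged controls, and 16 and 12 (median 0.0229) at a member minimum of 5 FPKM. The median was 0.0511 with a pseudocount of 0.1. For K178R against control, 3 were lower with no filter, 4 higher and 2 lower with averaged controls, and 6 and 2 at a minimum of 5 FPKM, and the median was 9.1e-04 under upper-quartile scaling. For K178R against WT, 40 were higher and 19 lower under either scaling (medians 0.0629 and 0.0611). At a minimum of 5 FPKM 15 were higher and 15 lower (median 0.0133), and at 1 FPKM the median was -0.0291. A minimum of 5 FPKM keeps only the 50 members from 5 to under 10 FPKM and the 24 at 10 or more. Counts at that minimum thus come from fewer members, and their fall is not a loss of calls. Leaving out each library gave 27 to 39 higher and 13 to 19 lower (median 0.0294 to 0.0555) for WT against control. It gave 4 to 11 higher and 2 to 8 lower (median 0.0103 to 0.016) for K178R against control, and 15 to 22 higher and 19 to 36 lower (median -0.0236 to -0.00212) for K178R against WT. The shares of all genes in these fits are not given, and the cause was not tested. Same-numbered libraries did not deviate together (r of -0.031 to 0.032 over genes), so the numbers do not pair them. With the replicate block the counts were 40 and 19, 12 and 5, and 22 and 38, and ZNF646 and ZNF598 lost their calls with K178R (adjusted p = 0.0621 and 0.0551 by limma). Low levels limit the precision: at 2 FPKM the pseudocount of 1 shrinks a change.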
